A study of Mus musculus with 28 samples.

Results

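The 10 genes described here encode the corepressor KAP1 (gene Trim28) and the proteins that write or read methylation of lysine 9 of histone H3 (H3K9): Setdb1, its partner Atf7ip, the HP1 genes Cbx1, Cbx3 and Cbx5, and the methyltransferase pairs Suv39h1 with Suv39h2 and Ehmt1 with Ehmt2. They were chosen by name, at a time when earlier results of these data were known, and they are 10 of the 37991 genes counted. Each was tested, as were 20321 genes in all. RNA came from J1 mouse ES cells of strain 129S4/SvJae, grown in 2i and LIF, and collected 5 days after transduction with a lentiviral pLKO vector under puromycin selection. The vector was either empty (shEmpty) or carried a hairpin against Kap1 (shKap1). The 3 genotypes were wild type (WT), Dnmt1, Dnmt3a and Dnmt3b triple knockout (DNMT TKO) and Tet1, Tet2 and Tet3 triple knockout (TET TKO). WT and DNMT TKO had n = 3 for each hairpin and TET TKO had n = 2. Each genotype was a single line and the knockdown rested on a single hairpin, so line, clone and hairpin cannot be told apart from genotype and loss of KAP1. The mutant lines came from other laboratories. Loss of KAP1 arrests ES cells and leads to their death, which limits the knockdown as a model. The comparisons ask whether RNA of this machinery shifts when KAP1, DNA methylation or TET activity is lost.

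KRAB zinc finger proteins bind DNA at transposable elements and imprinted loci and recruit KAP1, which brings in SETDB1. SETDB1 trimethylates H3K9, ATF7IP stabilises SETDB1 in the nucleus, and HP1 proteins bind the methylated tail. SUV39H1 and SUV39H2 trimethylate H3K9 mainly at pericentromeric repeats, while the EHMT1 and EHMT2 heterodimer (GLP and G9a) places mono- and dimethylation in euchromatin.

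The hairpin and the parts of the genes that carried a deposited KAP1 region are printed first. The tests below are on gene counts, and none used the KAP1 stretches. In the hairpin oligo and in the Trim28 transcript the capitals mark the 21 targeted bases.
shKAP1 hairpin: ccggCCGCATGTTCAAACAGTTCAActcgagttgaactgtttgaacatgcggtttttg
Trim28 target with 30 bases on each side: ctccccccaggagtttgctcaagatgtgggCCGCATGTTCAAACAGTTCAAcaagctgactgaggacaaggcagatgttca
The target lies at chr7:13615908-13615928 (mm9, plus strand), in the coding part of exon 16 of 17 of Trim28. Among coding transcripts of 22611 genes, only Trim28 matched it exactly, none other matched with 1 or 2 mismatches, and Rlf matched with 3 mismatches. The hairpin therefore had no near match among the other members.

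KAP1 regions deposited by the authors overlapped 3 of the 10 genes, Trim28, Setdb1 and Atf7ip, against 15.3% of all 20244 tested genes with a position. Within 1000 bases of the gene start they overlapped 2 of 10, Trim28 and Atf7ip, against 4.40% of genes. A region of H3K9me3 that the authors listed as dependent on KAP1 lay in 1 member, Setdb1, against 7.95% of genes. Below, capitals mark CG dinucleotides, the substrate of DNA methylation, in a stretch of each KAP1 region that holds no UTR. All are of mm9, on the strand of the gene.
Trim28, chr7:13610068-13610317, coding part of exon 1: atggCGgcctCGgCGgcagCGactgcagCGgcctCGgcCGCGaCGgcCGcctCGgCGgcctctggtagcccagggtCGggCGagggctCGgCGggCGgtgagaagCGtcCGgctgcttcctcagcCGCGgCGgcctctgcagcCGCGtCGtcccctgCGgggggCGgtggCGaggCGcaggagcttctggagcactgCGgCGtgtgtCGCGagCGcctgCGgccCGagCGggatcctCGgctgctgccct
Atf7ip, chr6:136467122-136467371, before the gene start: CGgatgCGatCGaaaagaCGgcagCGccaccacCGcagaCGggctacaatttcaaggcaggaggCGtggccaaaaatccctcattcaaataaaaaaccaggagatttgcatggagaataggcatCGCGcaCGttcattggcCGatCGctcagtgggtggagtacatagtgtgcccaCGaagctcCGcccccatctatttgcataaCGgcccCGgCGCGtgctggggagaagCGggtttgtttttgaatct
Setdb1, chr3:95147157-95147399, intron 8, shared by the KAP1 and the H3K9me3 region: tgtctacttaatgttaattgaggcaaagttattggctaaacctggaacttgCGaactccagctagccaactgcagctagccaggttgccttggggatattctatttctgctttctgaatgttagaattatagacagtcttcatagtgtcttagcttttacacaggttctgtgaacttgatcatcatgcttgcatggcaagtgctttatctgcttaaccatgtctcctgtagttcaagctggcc
The stretch in Trim28 held 38 CG in 250 bases and that before Atf7ip held 20 in 250, whereas the intronic stretch of Setdb1 held 1 in 243. Beyond the printed stretch, the KAP1 region of Setdb1 also covered 280 bases of an LTR annotated as RLTR13B3, of class ERVK.

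All 10 gene starts lay within 1000 bases of an H3K4me3 peak in both ChIP replicates, against 69.7% and 72.0% of tested genes, and none lay within 1000 bases of an H3K27me3 peak, against 19.5% and 20.9%. These shares were not computed among genes as highly expressed as the members, so expression level cannot be told apart here. The starts of all members thus carried the mark of active promoters in WT J1 cells, for which the ChIP labels name no hairpin. In RefSeq promoters of GRCm38.p6 (250 bases before to 50 after a start), the members' 14 entries held from 8 to 40 CG, against a median of 7 over 32851 promoters. The lowest was the second entry of Cbx5 and the highest the second entry of Ehmt2.

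Levels were compared between genes as reads per kilobase of exon and scaled by library size with TMM (RPKM). In WT shEmpty Trim28 stood at 433 ± 51.2 (SD, n = 3) RPKM, above 99.7% of tested genes. The HP1 genes Cbx5 (87.3 ± 3.07) and Cbx1 (87.3 ± 3.72) followed. Their libraries overlapped, so neither ranked above the other.
Setdb1 (31.8 ± 2.93), Atf7ip (29.2 ± 1.5), Ehmt2 (29 ± 1.63) and Cbx3 (26.0 ± 1.70) formed the next tier, in which each neighbour in the order overlapped the next. Suv39h2 (12.8 ± 0.283) and Ehmt1 (12.4 ± 0.598) overlapped too, and Suv39h1 (3.64 ± 0.617 RPKM) was lowest of the 10. Cbx3 is uncertain as a level: copies of at least 95% identity and 100 bases, at 7 other places, covered 93.1% of its transcript, and the authors kept only uniquely mapped reads. A single such copy covered 12.6% of the Setdb1 transcript, and the other 8 members had none.

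The libraries held 18108431 to 29373696 reads on genes, and levels of a gene across libraries are given as CPM, its reads scaled by library size with TMM. The summed level of the ES cell markers lay at 3647 to 3858 CPM in WT shEmpty and at 2200 to 2357 CPM in WT shKap1, while trophoblast, primitive endoderm and fibroblast markers each summed to at most 15.6 CPM in every library. Below that ceiling the trophoblast sum rose on knockdown in WT, from 2.83 to 4.46 CPM to 6.71 to 10.5 CPM. Of its 4 tested genes 2 rose and 1 fell, and Krt7 went from 2.08 to 6.46 CPM on average. In DNMT TKO that sum fell from 6.18 to 7.77 CPM to 2.16 to 3.31 CPM, with 1 gene lower. In TET TKO it rose from 2.55 to 3.14 CPM to 3.56 to 3.59 CPM, with 1 gene higher. The primitive endoderm sum rose in WT, from 9.33 to 11.1 CPM to 13.5 to 15.4 CPM, with 3 of 5 higher and 1 lower. It also rose in DNMT TKO (5.79 to 8.91, then 10.4 to 12.8 CPM) and TET TKO (12.3 to 14.1, then 14.8 to 14.9 CPM). The fibroblast sum fell in WT, from 6.40 to 6.61 CPM to 3.88 to 6.24 CPM, although 2 of 6 rose and 2 fell. It fell in TET TKO too (11.7 to 12.7, then 7.39 to 7.64 CPM) and overlapped in DNMT TKO. Mesoderm and ectoderm markers summed to 43.0 to 52.6 CPM in WT shEmpty and 105 to 124 CPM in WT shKap1, mostly from Nes (43.9 and 106 CPM on average), and of the 4 tested Nes and Pax6 rose, T fell and Mixl1 did not pass. Their part in the members' changes was not tested. Of the deleted genes, Dnmt1, Dnmt3a and Dnmt3b were lower in DNMT TKO than in WT (by edgeR, log2 differences of -1.65, -3.04 and -2.64) and Tet1 and Tet2 in TET TKO (-1.49 and -2.16), with part of their reads remaining, while Tet3 was not (-0.03). Replicate 1 of each WT and DNMT TKO group stood apart from replicates 2 and 3 (chi-square per degree of freedom of 11.1 to 15.3, against 1.81 to 5.97 between replicates 2 and 3). The TET TKO shEmpty pair gave 45.6 and the TET TKO shKap1 pair 1.68, the lowest of all pairs. Whether replicates 2 and 3, or the TET TKO shKap1 pair, came from separate cultures was not tested. If they did not, n = 3 or n = 2 stands for fewer independent samples and SEs and p-values may be too small.

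**Figure D1:**
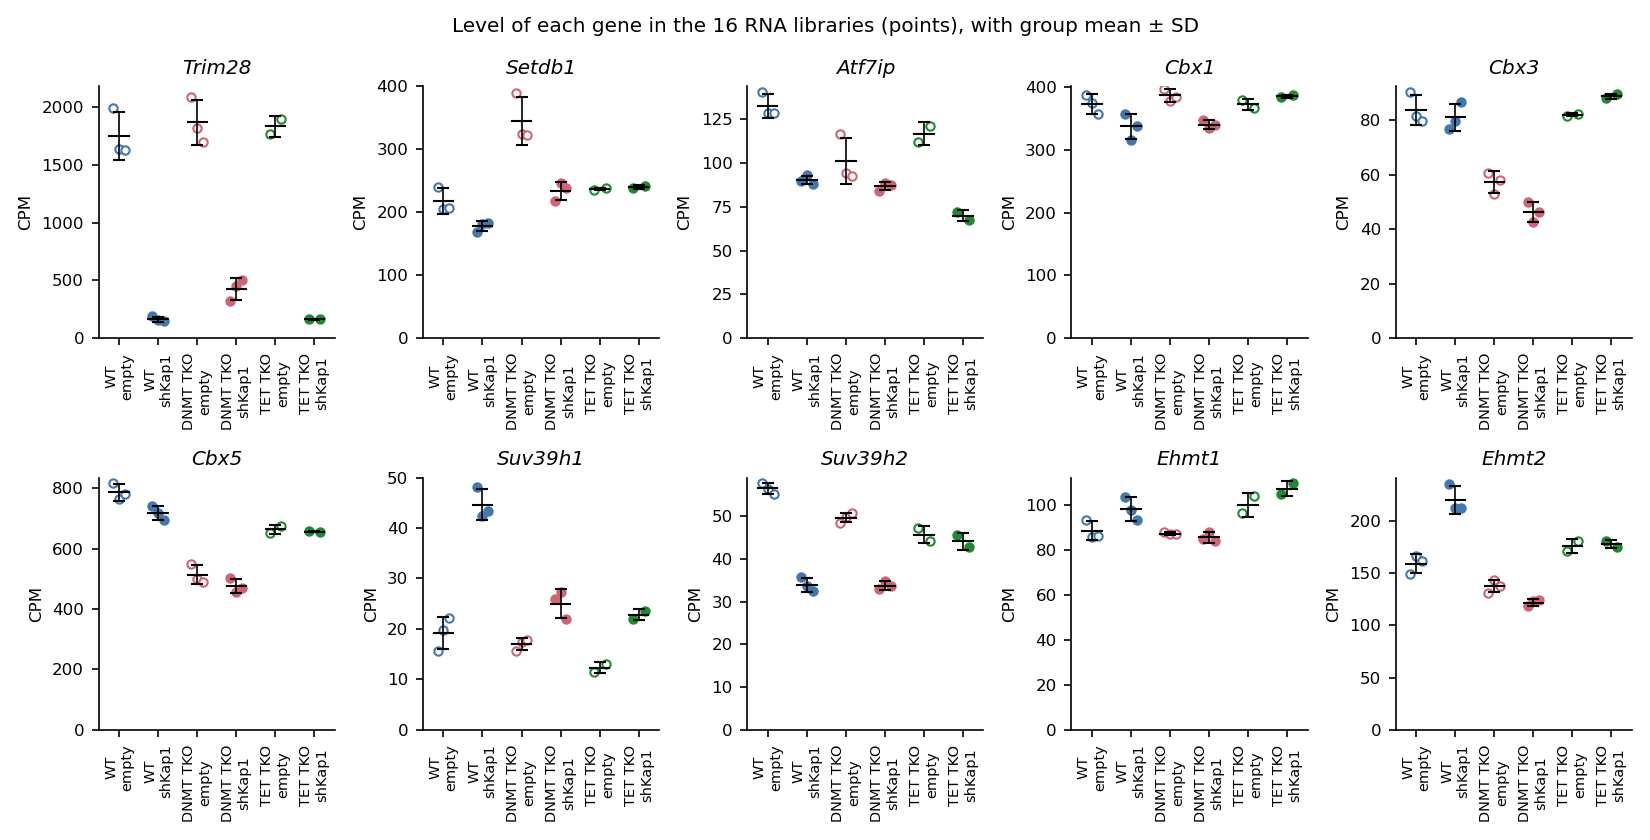
Level of each of the 10 genes in CPM (linear axes from 0) in the 16 RNA libraries, with open points for the empty hairpin, filled points for the Kap1 hairpin, and the mean ± SD of each group. Trim28 falls with the Kap1 hairpin in every genotype and stays higher in DNMT TKO shKap1 (327 to 506 CPM) than in WT shKap1 (149 to 190 CPM), while Suv39h1 rises in each genotype.

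Trim28, the targeted gene, checks the labels. In WT shEmpty it stood at 1991, 1639 and 1626 CPM, and in WT shKap1 at 190, 156 and 149 CPM. In DNMT TKO the values were 2085, 1819 and 1701 CPM with the empty hairpin and 327, 448 and 506 CPM with shKap1. In TET TKO they were 1771 and 1898 CPM, then 163 and 168 CPM.
No shKap1 library overlapped a shEmpty library, and the knockdown was less complete in DNMT TKO, where 17.5% to 27.1% of the mean with the empty hairpin remained, against 8.52% to 10.8% in WT and 8.88% to 9.18% in TET TKO. The log2 change was -3.41 (SE 0.16) in WT, -2.13 (SE 0.15) in DNMT TKO and -3.47 (SE 0.20) in TET TKO. The effect was 1.28 (SE 0.21) less negative in DNMT TKO than in WT (edgeR, adjusted p = 0.0008023), and the difference between TET TKO and WT was -0.06, with a 95% interval of -0.56 to 0.44. Every comparison of the knockdown between DNMT TKO and WT below therefore sets a shallower against a deeper loss of Trim28, and the part of that depth in the other differences was not tested. Without knockdown, Trim28 did not pass the test between either mutant and WT (log2 differences of 0.09 in DNMT TKO and 0.07 in TET TKO).

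In WT cells 9 of the 10 genes passed the test on knockdown (edgeR quasi-likelihood F test, adjusted p below 0.05 over all genes). Of these 3 rose (Suv39h1, Ehmt2 and Ehmt1) and 6 fell (Trim28, Suv39h2, Atf7ip, Setdb1, Cbx1 and Cbx5). Over all tested genes 23.0% rose and 22.7% fell. Among the 9695 genes with a mean of at least 10 CPM, a level all members reached, 24.9% rose and 33.3% fell. Only Trim28 and Suv39h1 changed at least 2-fold, against 17.4% of all tested genes and 8.41% of those of at least 10 CPM. Without Trim28, whose fall the hairpin was designed to give, 8 passed, 3 higher and 5 lower. The median change over the other 9 members was -0.13 on the log2 scale, beside -0.04 over genes of at least 1 CPM.
The calls on Cbx1, Cbx5 and Ehmt1 were marginal, and with any 1 WT library left out 6 or 7 of the 10 passed. Cbx5 was lost without any single WT library (-0.15 to -0.09). Cbx1 was lost without WT shEmpty replicate 1 or 2 or WT shKap1 replicate 2 or 3 (-0.14 to -0.09), and Ehmt1 without WT shEmpty replicate 2 or 3 or WT shKap1 replicate 1 or 2 (0.13 to 0.17). In bulk RNA, fewer cells of a type and less RNA per cell cannot be told apart. Of 10 proliferation genes 9 fell and 1, Mki67, rose in the same comparison (summed level 4654 to 4848 CPM, then 3570 to 3652 CPM), while 4 of 10 p53 targets rose and 2 fell. Mitochondrial genes took 2.44% to 2.85% of the reads on genes with shEmpty and 2.73% to 3.21% with shKap1. Their part in the members' changes was not tested.

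In DNMT TKO cells 8 of 10 passed, with 1 higher (Suv39h1) and 7 lower (Trim28, Setdb1, Suv39h2, Cbx3, Atf7ip, Cbx1 and Ehmt2), against a background of 19.7% higher and 15.6% lower, or 18.9% higher and 24.9% lower among genes of at least 10 CPM. Trim28 alone passed 2-fold, as did 12.5% of all tested genes and 4.22% of those of at least 10 CPM. Without Trim28, the hairpin's own target, 7 passed, 1 higher and 6 lower, and 0 reached 2-fold. ES cell markers summed to 3826 to 3889 CPM before and 2479 to 2816 CPM after knockdown there, and 8 of 10 p53 targets rose (summed level 1717 to 1794 CPM, then 2485 to 2529 CPM). Of 10 proliferation genes 6 fell and 1 rose (4699 to 4749 CPM, then 4086 to 4173 CPM), and the share of reads on mitochondrial genes was 3.32% to 3.45%, then 3.74% to 4.22%. Their part in the members' changes was not tested.
In TET TKO cells 3 of 10 passed, Suv39h1 higher and Trim28 and Atf7ip lower, against 15.3% higher and 15.1% lower in all genes, or 16.5% and 21.7% among genes of at least 10 CPM. Again Trim28 was the one member past 2-fold, against 12.5% of all tested genes and 5.68% of those of at least 10 CPM. Without Trim28 2 passed, 1 in each direction. ES cell markers summed to 3637 to 3797 CPM before and 2733 to 2782 CPM after knockdown, and 5 of 10 p53 targets rose and 1 fell. Of the proliferation genes 3 fell (4493 to 4619 CPM, then 4105 to 4133 CPM), and the mitochondrial share was 2.42% to 2.49%, then 2.24% to 2.36%. Their part was not tested there either. TET TKO had n = 2 per hairpin, and a fit of those libraries alone gave 5 members, adding Cbx3 (0.14, adjusted p = 0.01558) and Ehmt1 (0.13, adjusted p = 0.03478), both higher. A count that differs between genotypes is not itself a test of a difference, which is given for each gene below.

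**Figure D2:**
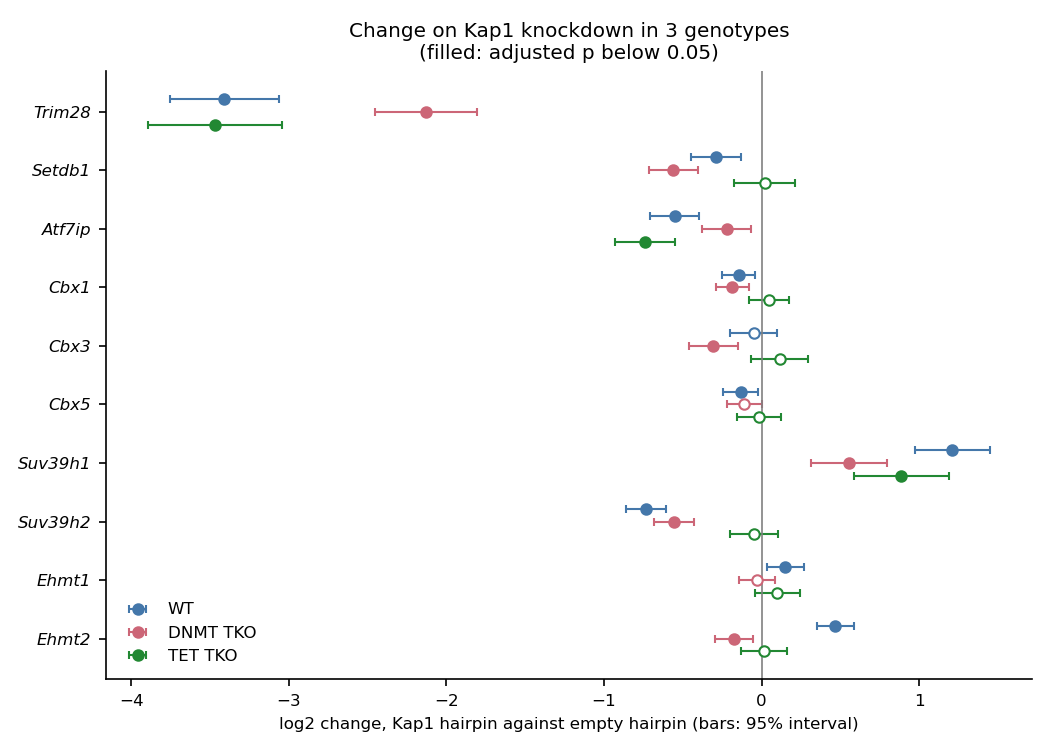
Log2 change of each gene with the Kap1 hairpin against the empty hairpin in WT, DNMT TKO and TET TKO cells, with 95% intervals. Filled points passed the test; Suv39h1 lies right of 0 and Atf7ip and Trim28 left of 0 in all genotypes, whereas Suv39h2 is at -0.05 in TET TKO, -0.73 in WT and -0.56 in DNMT TKO.

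Suv39h1 rose in each genotype. It stood at 15.7, 19.8 and 22.1 CPM in WT shEmpty and at 48.2, 42.3 and 43.4 CPM in WT shKap1. In DNMT TKO it went from 15.6, 17.4 and 17.9 CPM to 25.8, 27.3 and 21.9 CPM. In TET TKO it went from 11.5 and 13.1 CPM to 22 and 23.6 CPM.
The groups did not overlap within any genotype. The log2 change was 1.21 (SE 0.11) in WT, 0.55 (SE 0.11) in DNMT TKO and 0.89 (SE 0.14) in TET TKO. The rise was smaller in DNMT TKO than in WT by 0.66 (SE 0.16, adjusted p = 0.007773), beside the weaker knockdown there. Between TET TKO and WT the difference was -0.32, with an interval of -0.71 to 0.06.
Suv39h2, its paralogue, fell from 57.8, 56.3 and 55.3 CPM to 35.7, 33.6 and 32.5 CPM in WT. In DNMT TKO it fell from 48.5, 49.8 and 50.6 CPM to 32.9, 34.8 and 33.7 CPM. In TET TKO it stood at 47.1 and 44.2 CPM without and 45.5 and 42.7 CPM with knockdown.
The WT and DNMT TKO groups were well apart and the TET TKO groups overlapped. The log2 changes were -0.73 (SE 0.06), -0.56 (SE 0.06) and -0.05 (SE 0.07), and the effect in TET TKO differed from that in WT by 0.68 (SE 0.09, adjusted p = 0.0001437). For Trim28 itself the difference between TET TKO and WT was -0.06 (95% interval -0.56 to 0.44).
Per length, the order of the pair changed in WT, while Suv39h1 stayed below Suv39h2 in both mutants. Suv39h1 stood at 0.227 to 0.334 of the RPKM of Suv39h2 in WT shEmpty and at 1.06 to 1.13 in WT shKap1. The ratio moved to 0.545 to 0.658 in DNMT TKO shKap1 and 0.405 to 0.463 in TET TKO shKap1. The summed RPKM of the pair ran from 16.1 to 16.7 before and from 15.6 to 17.2 after knockdown in WT, so the groups overlapped in the sum. In DNMT TKO the sum went from 14 to 14.9 down to 11.8 to 13.1, and in TET TKO from 12.5 to 12.9 up to 14.2 to 14.5.

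A noncoding transcript on the other strand, Gm14820, shares 596 of the 5270 exon bases of Suv39h1. It was looked at after its values were seen. It stood at 30.7, 24.8 and 22.7 CPM in WT shEmpty and at 7.34, 8.79 and 8.69 CPM in WT shKap1. In DNMT TKO it went from 28.7, 23.4 and 22.1 CPM to 21.5, 16.4 and 20.3 CPM, and in TET TKO from 31.9 and 34.5 CPM to 20.7 and 21 CPM.
It fell where Suv39h1 rose. The log2 change of Gm14820 was -1.65 (SE 0.14) in WT, -0.35 (SE 0.13) in DNMT TKO and -0.67 (SE 0.15) in TET TKO, each past the test, with the smallest of the 3 again in DNMT TKO. The effect differed from WT by 1.30 (SE 0.18, adjusted p = 7.745e-05) in DNMT TKO and by 0.98 (SE 0.20, adjusted p = 0.004844) in TET TKO. The kit keeps strand and the authors counted by strand, so these reads are kept apart in the tables. On the side of Suv39h2, Dclre1c, which encodes the nuclease Artemis (357 shared exon bases, opposite strand) fell in all genotypes (-0.39, -0.32 and -0.48), including TET TKO where Suv39h2 was at -0.05.

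**Figure D3:**
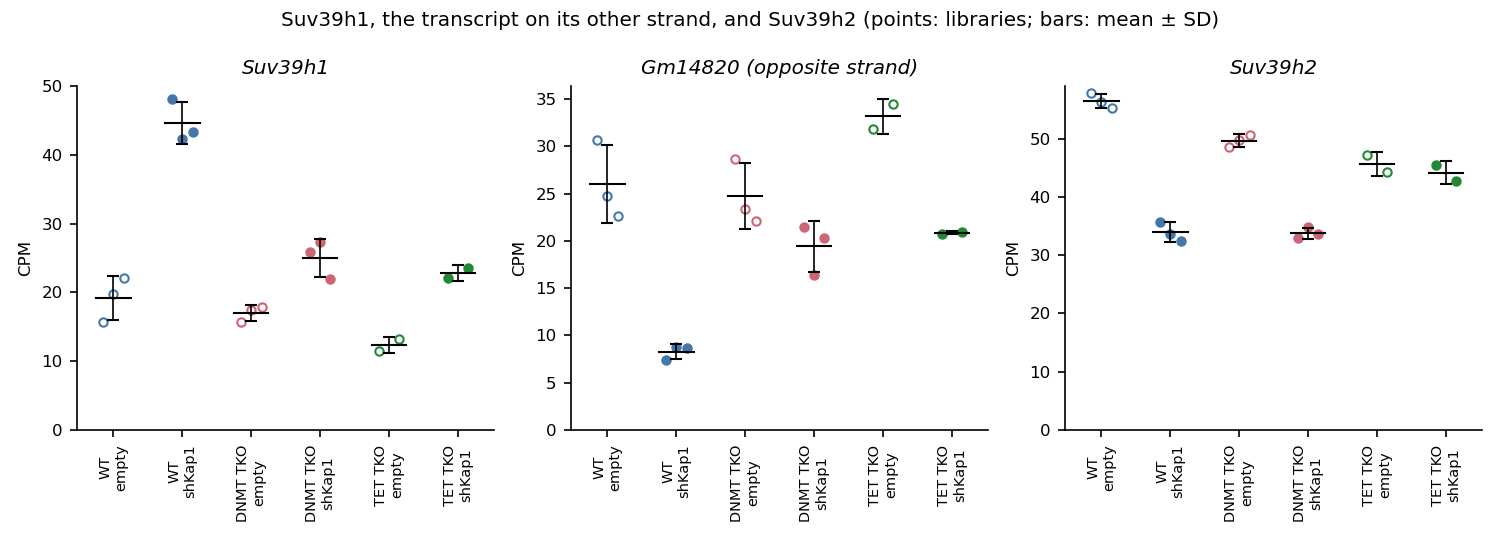
Suv39h1, the transcript Gm14820 on its opposite strand, and Suv39h2 in CPM (linear axes from 0) in each library, with mean ± SD. Suv39h1 rises and Gm14820 falls with the Kap1 hairpin in each genotype, most in WT, and the TET TKO groups of Suv39h2 overlap.

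Atf7ip, the SETDB1 partner, fell in each genotype: from 140, 129 and 128 CPM to 89.8, 92.8 and 88.0 CPM in WT. In DNMT TKO it went from 116, 94.4 and 92.4 CPM to 84.0, 88.6 and 87.1 CPM, and in TET TKO from 112 and 121 CPM to 71.9 and 67.6 CPM. No groups overlapped, though in DNMT TKO the gap was small.
The log2 changes were -0.55 (SE 0.07), -0.22 (SE 0.07) and -0.74 (SE 0.09). The call in DNMT TKO (adjusted p = 0.02733) was lost in 3 of 15 alternatives, among them without replicate 1 of DNMT TKO shEmpty (-0.14) or of DNMT TKO shKap1 (-0.22), with adjusted p of 0.007441 to 0.09027 over the alternatives. A second annotated record directly downstream on the same strand fell likewise (-0.62 in WT, -0.50 in DNMT TKO and -0.87 in TET TKO). The fall was smaller in DNMT TKO than in WT by 0.33 (SE 0.10, adjusted p = 0.03468), a call kept in 7 of 21 alternatives (adjusted p 0.002619 to 0.304). It was lost without any 1 of DNMT TKO shEmpty replicates 2 and 3, the DNMT TKO shKap1 libraries, WT shEmpty replicate 1 and the WT shKap1 libraries (0.23 to 0.32). The downstream record gave a difference of 0.12 that did not pass.
Setdb1, the enzyme that KAP1 recruits, fell in WT and DNMT TKO. It went from 241, 205 and 208 CPM to 169, 182 and 184 CPM in WT, and from 390, 325 and 322 CPM to 219, 246 and 239 CPM in DNMT TKO. In TET TKO it stood at 235 and 238 CPM, then at 238 and 242 CPM.
Groups were apart in WT and DNMT TKO and overlapped in TET TKO, with log2 changes of -0.29 (SE 0.08), -0.56 (SE 0.07) and 0.02 (SE 0.09). Neither difference from WT passed (-0.27 with adjusted p = 0.08501 in DNMT TKO, 0.31 with adjusted p = 0.116 in TET TKO). The former passed in 7 of 21 alternatives (adjusted p 0.0096 to 0.2057), among them without WT shEmpty replicate 1 (-0.40), WT shKap1 replicate 1 (-0.35), DNMT TKO shEmpty replicate 2 (-0.35) or 3 (-0.36) or DNMT TKO shKap1 replicate 2 (-0.35). The DNMT TKO shKap1 libraries (219 to 246 CPM) overlapped the range of WT shEmpty (205 to 241 CPM). Cers2, listed as Lass2, lies opposite Setdb1 with 64 shared exon bases and went to -0.39 in DNMT TKO, to -0.26 in TET TKO, where it did not pass, and to 0.11 in WT, where it did not pass either. Between DNMT TKO and WT with the empty hairpin Lass2 was higher by 0.37, beside 0.67 for Setdb1.

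Reads on the intronic LTR of Setdb1 summed to 5 in WT shEmpty and 4 in WT shKap1, to 12 and 4 in DNMT TKO and to 2 and 3 in TET TKO, with 0 to 5 reads per library. The DNMT TKO groups did not overlap (3 to 5 reads with shEmpty, 1 to 2 with shKap1), but these few reads were neither scaled for depth nor tested. The LTR lies on the strand of Setdb1, so its reads cannot be told apart from unspliced Setdb1 RNA. In the 5hmC libraries (replicate 1, n = 1 per hairpin and no test), the H3K9me3 region in Setdb1 held 82 reads with shEmpty and 47 with shKap1, beside inputs of 31 and 59. After scaling, the change of 5hmC over input was -1.36 on the log2 scale there, whereas the 14445 H3K9me3 regions of that set had a median of 0.66 and a 5th to 95th percentile range of -0.61 to 1.74. The KAP1 region in Setdb1, which shares the stretch printed above with that H3K9me3 region, so that the values are not separate, had 12 and 17 reads of 5hmC (-0.11). The KAP1 region at the start of Atf7ip had 27 and 29 (0.52), and the 26553 KAP1 regions had a median of 0.64 with a 5th to 95th percentile range of -0.85 to 1.97. At the KAP1 region of Trim28 the counts were 1 and 4, too few to read a change.

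EHMT2 (G9a) and EHMT1 (GLP) act as a pair. Ehmt2 went from 149, 166 and 162 CPM to 236, 212 and 213 CPM in WT. In DNMT TKO it went from 131, 143 and 138 CPM to 118, 123 and 124 CPM, and in TET TKO it stood at 171 and 181 CPM, then at 181 and 175 CPM.
It rose in WT (0.47, SE 0.06), fell slightly in DNMT TKO (-0.17, SE 0.06) and overlapped in TET TKO (0.02, SE 0.07). The effect differed from that in WT in both mutants, by -0.64 (SE 0.08, adjusted p = 2.109e-05) in DNMT TKO and by -0.45 (SE 0.09, adjusted p = 0.003403) in TET TKO. In TET TKO 8.88% to 9.18% of Trim28 remained, against 8.52% to 10.8% in WT. The call in DNMT TKO itself was lost in 3 of 15, among them without replicate 2 of DNMT TKO shEmpty (-0.17), with adjusted p of 0.00571 to 0.08252 over the alternatives. Ehmt1 moved little, from 85.8 to 93.5 CPM in WT shEmpty to 93.2 to 104 CPM in WT shKap1, ranges that overlap slightly. Its log2 changes were 0.15, -0.03 and 0.10, of which only that in WT passed (adjusted p = 0.0323; lost in 6 of 15 alternatives, 0.008731 to 0.1356).

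The HP1 genes, whose proteins read H3K9 methylation, moved by at most 0.30 on the log2 scale. Cbx1 went from 356 to 388 CPM to 316 to 357 CPM in WT and from 378 to 397 CPM to 334 to 347 CPM in DNMT TKO, with log2 changes of -0.15 and -0.18 that both passed. In TET TKO it was at 366 and 379 CPM, then 383 and 387 CPM (0.05, not past the test). The chromosome of Cbx1, 11, had a median change of -0.13 in WT and -0.05 in DNMT TKO. Relative to that median, Cbx1 was at -0.02 and -0.14. Cbx5, the HP1 alpha gene, was at 763 to 817 CPM and then at 693 to 740 CPM in WT.
That log2 change of Cbx5, -0.13, had an adjusted p of 0.04964 and passed in 2 of 15 alternatives (0.02325 to 0.2527). Its chromosome, 15, had a median change of -0.12 in WT, and relative to that median Cbx5 was at -0.01. The part of these chromosome shifts was not tested. In DNMT TKO (-0.11) and TET TKO (-0.02) Cbx5 did not pass, although in DNMT TKO it did without shEmpty replicate 3 (-0.17) or shKap1 replicate 1 (-0.17), with adjusted p of 0.02973 to 0.2283 over the alternatives. Cbx3, the HP1 gamma gene, passed only in DNMT TKO, where it went from 52.8 to 60.7 CPM to 42.5 to 50.0 CPM (-0.30, SE 0.07). In WT its change was -0.05 with a 95% interval of -0.20 to 0.10. Cbx3 values carry the doubt about its copies given above.

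Across the tests of a difference in the knockdown effect, 4 of 10 members passed for DNMT TKO minus WT, Trim28 and Atf7ip upward (10.6% of all tested genes were higher) and Suv39h1 and Ehmt2 downward (7.78% lower). Among genes of at least 10 CPM 13.8% were higher and 11.9% lower. Trim28 alone passed 2-fold there, as did 7.14% of all tested genes and 4.41% of those of at least 10 CPM. Without Trim28 3 passed. For TET TKO minus WT 2 passed, Suv39h2 upward (4.64% higher) and Ehmt2 downward (5.06% lower), and none reached 2-fold, against 4.21%. Among genes of at least 10 CPM 6.61% were higher, 6.97% lower and 2.82% past 2-fold. Both sets of tests share the WT libraries. Ehmt2 was the member in both. For DNMT TKO minus WT, Cbx3 (-0.26, adjusted p = 0.09371) and Ehmt1 (-0.18, adjusted p = 0.1274) did not pass but did so in 6 and 3 of 21 alternatives (adjusted p 0.019 to 0.2919 and 0.02625 to 0.253). Among these, Cbx3 passed without DNMT TKO shEmpty replicate 2 (-0.35), DNMT TKO shKap1 replicate 1 (-0.35), WT shEmpty replicate 1 (-0.35) or WT shKap1 replicate 1 (-0.34), and Ehmt1 without WT shEmpty replicate 1 (-0.27) or WT shKap1 replicate 3 (-0.26).

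Without knockdown, 6 of 10 members differed between DNMT TKO and WT. Setdb1 was higher and Cbx5, Cbx3, Atf7ip, Ehmt2 and Suv39h2 were lower, against 20.5% of all tested genes higher and 23.1% lower, or 24.1% and 30.9% among genes of at least 10 CPM. In the same comparison mesoderm and ectoderm markers summed to 96.0 to 118 CPM in DNMT TKO and 43.0 to 52.6 CPM in WT, again mostly from Nes, with 3 of 4 higher, and 7 of 10 p53 targets were lower and 1 higher. Mitochondrial genes took 3.32% to 3.45% of reads in DNMT TKO and 2.44% to 2.85% in WT. The part of these in the members' differences was not tested. None of the members reached 2-fold, against 16.3% of all tested genes and 7.69% of those of at least 10 CPM.
Setdb1 stood at 322 to 390 CPM in DNMT TKO and 205 to 241 CPM in WT, a log2 difference of 0.67 (SE 0.07, n = 3 each) with no overlap. Its chromosome, 3, had a median difference of -0.04. Cbx5 was lower by 0.61 (490 to 550 against 763 to 817 CPM), on chromosome 15 with a median of -0.08.
Cbx3 and Atf7ip lie on chromosome 6, whose genes had a median of -0.30, the lowest of the chromosomes. Cbx3 was at -0.55 and Atf7ip at -0.39, so that relative to their chromosome they were at -0.25 and -0.09. The downstream record of Atf7ip was at -0.66, or -0.36 relative to the chromosome. Cbx1 lies on chromosome 11, with the highest median (0.30), and was at 0.05. The part of the chromosomes' shifts in these differences was not tested. Ehmt2 (-0.21) and Suv39h2 (-0.18) differed by less. The call on Ehmt2 was lost with replicates 2 and 3 summed (-0.19, adjusted p = 0.0775; 0.004696 to 0.0775 over the alternatives), and the call on Suv39h2 was lost in 8 of 15 alternatives (adjusted p 0.01101 to 0.09706), among them without DNMT TKO shEmpty replicate 1 (-0.15) or 2 (-0.17) or WT shEmpty replicate 1 (-0.15). Suv39h1 (-0.18, adjusted p = 0.2275) passed only without WT shEmpty replicate 1 (-0.28, adjusted p = 0.04437).

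Between TET TKO and WT 4 of 10 differed, Ehmt1 higher and Suv39h1, Suv39h2 and Cbx5 lower, against 14.1% higher and 13.1% lower over all genes, or 17.2% and 17.1% among genes of at least 10 CPM. All 10 p53 targets were lower in the same comparison (median -0.60), as was the proliferation sum (4493 to 4619 against 4654 to 4848 CPM). The sum of mesoderm and ectoderm markers was higher (62.7 to 63.4 against 43.0 to 52.6 CPM), though of 4 tested 2 were higher and 1 lower. Higher too were the sums of primitive endoderm (12.3 to 14.1 against 9.33 to 11.1 CPM) and fibroblast markers (11.7 to 12.7 against 6.40 to 6.61 CPM). Of 5 primitive endoderm genes 2 were higher and 1 lower, and of 6 fibroblast genes 2 were higher and none lower. The sums of ES cell and of trophoblast markers overlapped. The part of these was not tested. None of the members reached 2-fold, against 10.5% of all tested genes and 4.89% of those of at least 10 CPM. Suv39h1 was at 11.5 and 13.1 CPM against 15.7 to 22.1 CPM in WT, a log2 difference of -0.64 (SE 0.13).
Suv39h2 (-0.31, SE 0.07) was lower too, at 44.2 and 47.1 CPM against 55.3 to 57.8 CPM, so both genes of the pair started lower in TET TKO than in WT. Cbx5 was at -0.25 (SE 0.06), a call lost without replicate 1 of TET TKO shEmpty (-0.22; adjusted p 0.0005316 to 0.05965 over the alternatives). Ehmt1 at 0.18 (adjusted p = 0.03846) did not pass with replicate numbers as a block (0.16, adjusted p = 0.06013) and was lost in 7 of 14 alternatives (0.01564 to 0.3649), among them without TET TKO shEmpty replicate 2 (0.12) or WT shEmpty replicate 2 or 3 (0.16 each). The medians of the members' chromosomes lay between -0.04 and 0.00 in this comparison.

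**Figure D4:**
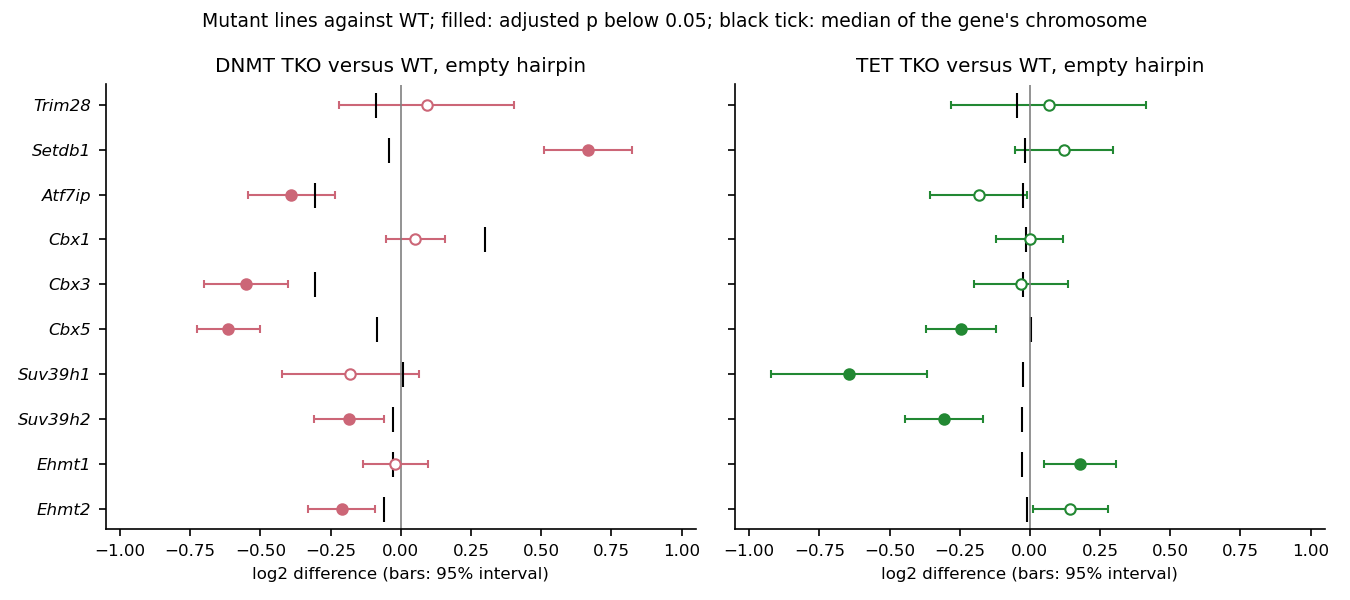
Log2 difference of each gene between DNMT TKO (left) or TET TKO (right) and WT with the empty hairpin, with 95% intervals, filled where the test was passed; the black tick gives the median difference of the genes on the same chromosome. In DNMT TKO, Setdb1 and Cbx5 stand well away from their chromosomes' ticks, and Atf7ip and Cbx3 lie to the left together with chromosome 6.

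The wider machinery was counted over lists written by name. Of the KAP1 relatives Trim24 and Trim33 rose in WT (0.44 and 0.49) and Trim66 fell (-1.16, from 5.39 to 7.90 CPM to 2.88 to 3.41 CPM). Trim33 also rose in DNMT TKO (0.15) and Trim66 fell in TET TKO (-0.86), while Trim66 in DNMT TKO was already lower than in WT (-1.40) and did not pass on knockdown (0.26). The effect on Trim24 and Trim33 differed between DNMT TKO and WT by -0.46 and -0.34, that on Trim66 by 1.42, and that on Trim33 between TET TKO and WT by -0.40, each past the test. With the empty hairpin Trim24 and Trim33 already stood higher than in WT, by 0.30 and 0.24 in DNMT TKO and by 0.41 and 0.19 in TET TKO.
In the HUSH complex, which also works with SETDB1, Pphln1 rose in all genotypes (0.70, 0.58 and 0.34) and Fam208a (TASOR) fell in all (-0.46, -0.19 and -0.27). Mphosph8 fell in WT (-0.14) and DNMT TKO (-0.22) and was at -0.19 in TET TKO, and Morc2a passed in no knockdown.
Among other H3K9 methyltransferase genes Mecom rose most, from 0.889 to 2.09 CPM to 8.23 to 10.3 CPM in WT, with log2 changes of 2.54 (SE 0.21), 3.19 (SE 0.23) and 3.42 (SE 0.26) in WT, DNMT TKO and TET TKO. Prdm16 fell in WT (-0.59) and DNMT TKO (-0.64), Prdm2 rose in DNMT TKO (0.28), and Setdb2 passed in no knockdown.

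The share of all genes of at least 10 CPM that fell, given above, was 33.3% in WT, 24.9% in DNMT TKO and 21.7% in TET TKO, beside which the next counts stand. Of the 10 SUMO genes, whose products modify KAP1, 7 fell and 1 rose in WT, 6 fell in DNMT TKO and 2 fell in TET TKO. Of 6 heterochromatin chaperones and remodellers 5, 4 and 3 fell and none rose. Of 12 NuRD genes 5 fell and 1 rose in WT, 8 fell and 1 rose in DNMT TKO, and 4 fell and 1 rose in TET TKO. Chd3, a NuRD remodeller, fell in each genotype (-0.44, -1.27 and -0.93), and its effect in DNMT TKO differed from that in WT by -0.83 (adjusted p = 0.00457).
Of 10 H3K9 demethylase genes 4 rose and 2 fell in WT, 2 fell in DNMT TKO and 1 fell in TET TKO, and 24.9% of the genes of at least 10 CPM rose in WT. The riser of over 2-fold, Kdm4d, stayed at or below 0.210 CPM in every library. Of the 3 partners of G9a and GLP, Zfp644 rose in WT (0.29), and Wiz and Cdyl passed in no knockdown. Median changes of the lists in WT ran from -0.29 (chaperones and remodellers) to 0.44 (KAP1 relatives), beside -0.04 over all genes of at least 1 CPM.

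**Figure D5:**
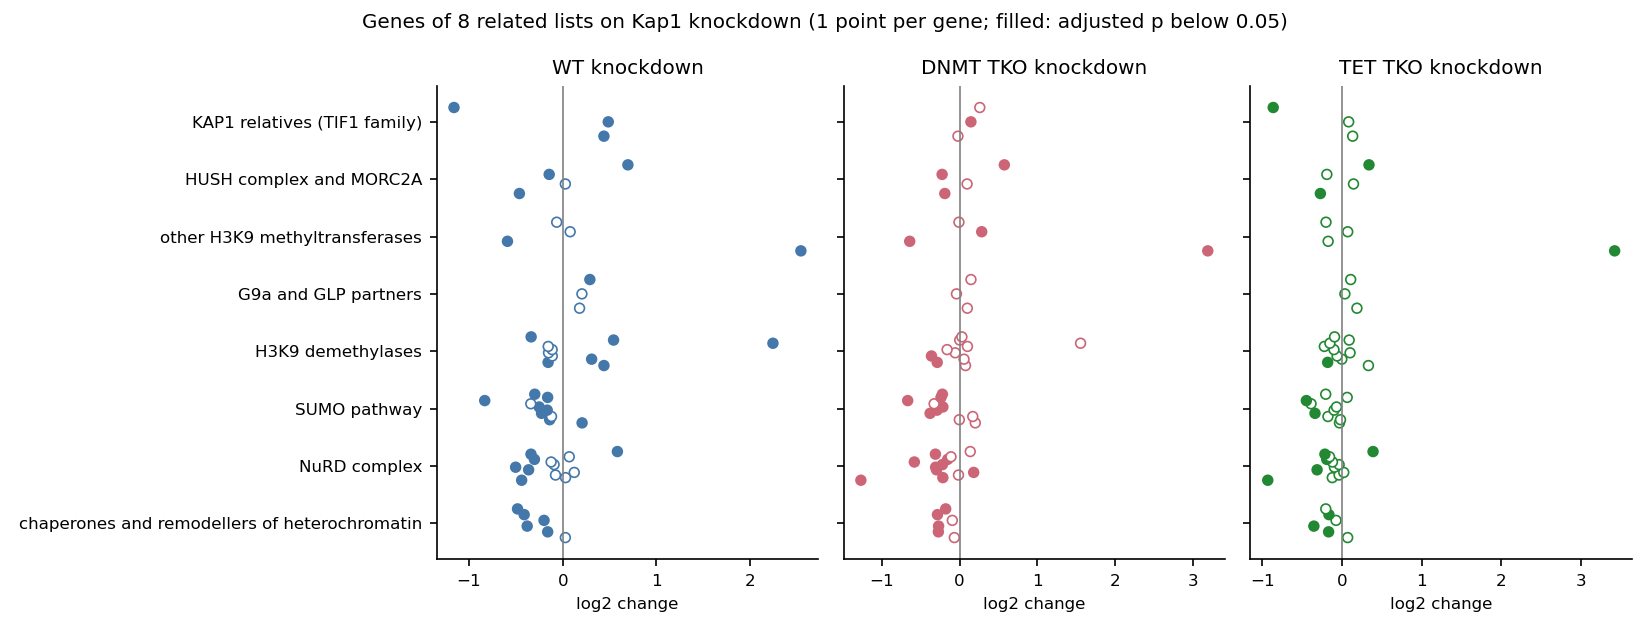
Log2 change on Kap1 knockdown for each gene of 8 related lists in WT, DNMT TKO and TET TKO cells, filled where the test was passed. Mecom lies above 2.5 in all panels, and the medians of the SUMO, NuRD and chaperone lists lie below 0 in each panel.

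Over the 16 libraries, Rrm1 (Pearson r = 0.983), Sppl3 (0.982) and Ckap4 (0.980) had the profiles of log2 CPM most like Trim28, among 14051 genes of at least 1 CPM. For Suv39h1 they were Pak1 (0.971), Senp5 (0.970) and Mdk (0.964), and for Atf7ip they were Mrps2 (0.955), Mccc2 (0.947) and Nosip (0.945). These points share the 6 groups, and the likeness is a description.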

How the data were processed

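RNA-seq (1 × 100 bases, stranded mRNA), hMeDIP-seq and ChIP-seq files of WT, DNMT TKO and TET TKO cells were used. Gene and repeat counts, and the counts of hMeDIP reads per region, were deposited by the authors as raw counts; H3K4me3 and H3K27me3 peaks carry the authors' deposited score. The methods name HISAT2 to mm9 with unique reads and featureCounts by strand; the file headers give featureCounts 1.5.0-p1, the processing notes 1.5.1, and a file name in the headers is of TopHat, so the aligner is uncertain.

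Genes with at least 16 reads over 16 libraries (20321 of 37991) were fitted in edgeR 4.0.16 (R 4.3.3; TMM, robust quasi-likelihood F test, Benjamini-Hochberg over all genes) with 6 groups, and 95% intervals come from that fit. SEs were derived from the F statistics. The SD and n of values are over libraries. The study describes the replicates as independent experiments, but replicates 2 and 3 of WT and DNMT TKO were closer to each other than to replicate 1 and may share a culture. The TET TKO shKap1 pair was close as well and may also share a culture. Recovery of known changes was tested on simulated data.

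Deviations from group means were correlated between libraries of the same replicate number. The r was 0.268 to 0.459 for WT shEmpty with WT shKap1 and 0.192 to 0.557 for DNMT TKO shEmpty with shKap1. For the shEmpty groups of both it was 0.296 to 0.495, and for their shKap1 groups 0.0973 to 0.236. Pairs with a TET TKO group gave -0.0583 to -0.0261. Libraries of unlike number were not correlated, and replicate 1 stood apart in WT and DNMT TKO, so pairing by number was not tested.

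Members, lists and tests were chosen with earlier results of these data known. Named from the lists were genes past the test at 2-fold in a knockdown or mutant contrast, at most 4 per list, and whole lists of at most 4; Fam208a was matched by an alias, and other genes named were chosen after their values were seen. Profiles were compared by Pearson r of log2 CPM with a prior count of 2.

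Gene positions are of mm9 (GENCODE vM1). Copies were found with BLAST+ 2.17.0. 5hmC used replicate 1 with a pseudocount of 1 read and totals over all region sets; replicate 2 was left out because its labels and file names disagree. Alternatives covered scaling, filters, limma-voom, DESeq2 1.42.0 (Wald), a 2-fold threshold, a replicate block, libraries in the fit, leaving out each library, chromosome centring, and, added after seeing the data, replicates 2 and 3 summed.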

Additional observations from a re-analysis of the deposited data

Results flagged for a closer look

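In 6 results the effect of the knockdown passed a test of a difference between a mutant and WT (edgeR, adjusted p over all genes). In DNMT TKO minus WT the log2 difference was 1.28 for Trim28 (adjusted p = 0.0008023), 0.33 for Atf7ip (adjusted p = 0.03468), -0.66 for Suv39h1 (adjusted p = 0.007773) and -0.64 for Ehmt2 (adjusted p = 2.109e-05). In TET TKO minus WT it was 0.68 for Suv39h2 (adjusted p = 0.0001437) and -0.45 for Ehmt2 (adjusted p = 0.003403). After the knockdown 17.5% to 27.1% of Trim28 remained in DNMT TKO, 8.52% to 10.8% in WT and 8.88% to 9.18% in TET TKO. The differences for DNMT TKO thus set a shallower against a deeper loss of Trim28, and that for Trim28 is this depth itself. The Atf7ip difference passed in 7 of 21 alternatives, and the downstream record of Atf7ip gave a difference of 0.12 that did not pass.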

How the results depend on the processing

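Of the 36 member results past the test, 26 passed under every alternative that gave a p, apart from the 2-fold threshold, and 10 were lost in at least 1; of 34 not past it, 7 passed in at least 1. No result past the test changed sign. Among those not past it some did, such as Cbx3 on knockdown in WT (-0.09 to 0.02 over the alternatives). Relative to its chromosome, Cbx1 between DNMT TKO and WT went from 0.05 to -0.25. With a 2-fold threshold added, 2 members passed on knockdown in WT, 1 in DNMT TKO and 1 in TET TKO, 0 passed between DNMT TKO and WT and 0 between TET TKO and WT, and for the difference of effects 1 passed in DNMT TKO minus WT and 0 in TET TKO minus WT. With only the groups of the contrast in the fit, 5 passed in TET TKO on knockdown. Leaving out 1 library at a time gave 6 to 7 members in WT, 7 to 9 in DNMT TKO and 3 in TET TKO on knockdown, 5 to 6 and 3 to 4 between DNMT TKO or TET TKO and WT, and 3 to 6 and 2 for the differences of effects. A lone TET TKO library was then assumed to vary like the other groups. With the replicate block, or pairing, the counts were 9, 8, 3, 6, 3, 4 and 2 in the same order, and Ehmt1 in TET TKO against WT was the single call lost (log2 difference 0.16, adjusted p = 0.06013). With replicates 2 and 3 summed, chosen after seeing the data, they were 6, 7, 3, 4, 3, 3 and 2. The median of genes of at least 1 CPM moved by less than 0.1 between TMM, DESeq2 size factors and no scaling. At the H3K9me3 region of Setdb1 the 5hmC value was -1.75 with totals of the H3K4me3 regions and -1.38 with a pseudocount of 0.5. With 2000 bases either side of the start, the members at each kind of region were as many as with 1000. Suv39h1 is limited by depth, with 282 to 978 reads per library.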
